A study of Mus musculus with 2 samples.

Results

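The genes described here carry the Wnt signal from its secretion to the nucleus. They were taken by symbol from the authors' gene table: the Wnt ligands, Porcn and Wls, the Frizzled receptors, Lrp5, Lrp6, Ror1, Ror2, Ryk, the R-spondins with their Lgr receptors and the ligases Znrf3 and Rnf43, the Dkk, Sfrp, Frzb, Wif1 and Apcdd1 antagonists, and beta-catenin with Axin, Apc, Nkd and the TCF/LEF factors. The choice went by name, with earlier results of these data known, and 67 of the 23176 genes in the table matched. A test by the authors was given for 47 of them. The other 20 carried the status NOTEST, with at most 0.387 FPKM (STHdhQ7) and 0.463 FPKM (STHdhQ111). FPKM are fragments scaled to transcript length and to the mapped fragments of the library.

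Wnt proteins are secreted lipid-modified ligands. Bound to a Frizzled receptor and to Lrp5 or Lrp6, they stop a destruction complex built on Axin and Apc from degrading beta-catenin, which then activates genes together with TCF/LEF factors. R-spondins strengthen the signal by removing the ligases Znrf3 and Rnf43 from the cell surface, while Dkk and Sfrp proteins weaken it outside the cell. Other Wnt signals run through Ror and Ryk receptors without beta-catenin. In the developing forebrain the pathway is known for patterning the dorsal midline and for controlling the division of progenitors.

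Both groups are mouse cell lines derived from striatal tissue of embryonic day 14 on a 129SvEv/CD1 background and used at under 15 passages. STHdhQ7 has the genotype HdhQ7/Q7 and STHdhQ111 the genotype HdhQ111/Q111, so each is homozygous for a huntingtin gene with the shorter or the longer polyglutamine tract. Culture was at 33 °C, followed by 2 days at 39 °C to stop division. Each title names 3 replicates, and the deposited value is 1 combined FPKM per line, so no spread between replicates is available here and depth is unknown. With a single line per genotype, the effect of genotype and of each line's own history cannot be told apart.

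The labelled origin was checked against defining markers. Gsx2 and Isl1, factors of striatal progenitors and young striatal neurons, were listed at 0 in both lines, as was the dopamine receptor gene Drd1a. Other markers of the same lists were expressed, in STHdhQ7 and STHdhQ111 respectively. They included Sox2 (72.0 and 0.561 FPKM), Nes (36.0 and 0.999 FPKM), Meis2 (17.9 and 6.16 FPKM) and Penk (2.85 and 6.49 FPKM). Under 1 FPKM in both lines were 6 of 15 progenitor markers and 10 of 11 markers of striatal medium spiny neurons. Mesenchymal genes were abundant in both lines, and Col1a1 alone was listed at 451.9 and 1487 FPKM.

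Below, a gene is called when the q-value in the authors' deposited table is 0.05 or less. The p-value and statistic in that table imply a standard error for each log2 fold change (implied SE, given after ±), with a median of 0.49 over the tested Wnt pathway genes (0.44 over all tested genes). Of the 47 tested Wnt pathway genes, 12 were called higher in STHdhQ111, 10 were called lower and 25 were not called. Over all 12740 tested genes 6.35% were called higher, 7.17% lower and 13.5% in either direction, against 25.5%, 21.3% and 46.8% of these genes. Called shares vary with abundance, so they were also set side by side by the FPKM of the higher line. From 1 to under 10 FPKM, 13 of 23 tested Wnt pathway genes were called (56.5%), against 15.6% of all tested genes. At 10 FPKM or more, 9 of 22 were called (40.9%), against 12% of all tested genes. With 0.5 FPKM added to both values, the median log2 ratio of STHdhQ111 to STHdhQ7 was 0.28 for the tested Wnt pathway genes and -0.05 for all tested genes. Ligands and R-spondins held 9 of the 12 higher calls, and genes grouped by name as antagonists held 4 of the 10 lower calls. The call nearest the threshold on the inside was Sfrp2 (q = 0.0375 in the authors' deposited table) and on the outside Dkk3 (q = 0.0560 there).

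**Figure D1:**
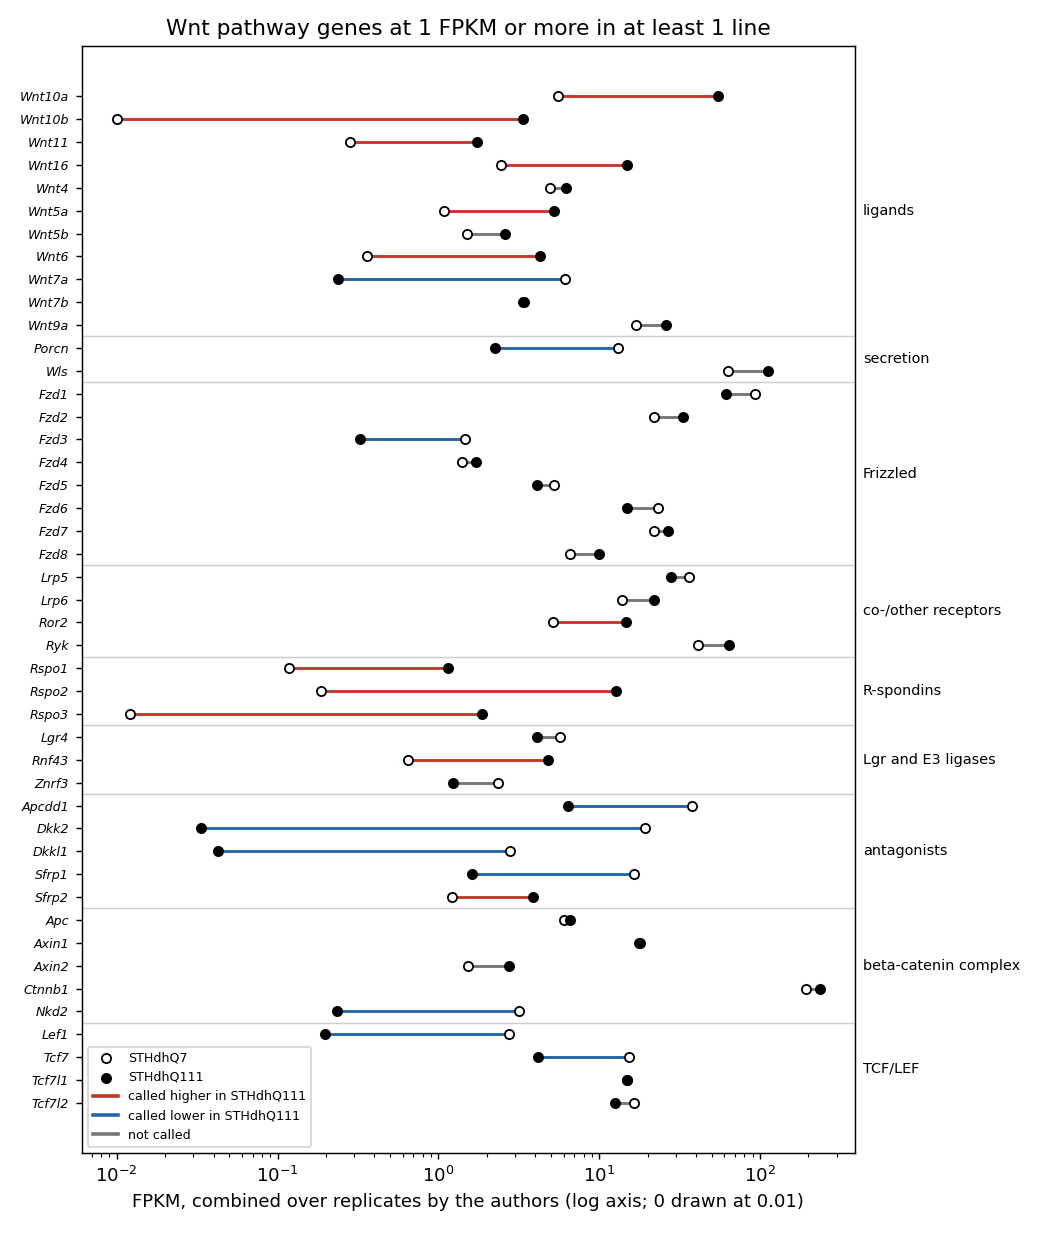
FPKM of the 45 Wnt pathway genes at 1 FPKM or more in at least 1 line, on a log axis, with open circles for STHdhQ7 and filled circles for STHdhQ111, each the authors' value combined over replicates. The line joining them is red for genes called higher in STHdhQ111, blue for genes called lower and grey for the others, and a value of 0 (Wnt10b in STHdhQ7) is drawn at 0.01; red lines gather among ligands and R-spondins and blue lines among antagonists and TCF/LEF factors.

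The upstream sequence of 4 called genes is shown because the study's title concerns DNA methylation, whose substrate in mammals is mainly the CpG dinucleotide. Among the called genes with an entry in the RefSeq promoter table (GRCm38.p6), they are the 2 in each direction with the largest ratio after 0.5 FPKM was added to both values. By the fold change in the authors' deposited table, Dkkl1 (-6.04 on the log2 scale) would precede Wnt7a (-4.69). Each run is the 250 bases before the annotated start, 5′ to 3′ on the gene's strand, with every CpG in capitals. The coordinates of these sequences are GRCm38.p6, while all gene positions elsewhere are mm9.
Dkk2, chr3:132085042-132085291, plus strand: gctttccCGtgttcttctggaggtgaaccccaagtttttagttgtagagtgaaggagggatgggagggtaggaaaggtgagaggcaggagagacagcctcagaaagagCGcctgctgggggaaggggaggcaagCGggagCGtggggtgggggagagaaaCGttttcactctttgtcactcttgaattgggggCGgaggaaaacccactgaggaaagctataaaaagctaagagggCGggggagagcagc
Wnt7a, chr6:91411354-91411603, minus strand: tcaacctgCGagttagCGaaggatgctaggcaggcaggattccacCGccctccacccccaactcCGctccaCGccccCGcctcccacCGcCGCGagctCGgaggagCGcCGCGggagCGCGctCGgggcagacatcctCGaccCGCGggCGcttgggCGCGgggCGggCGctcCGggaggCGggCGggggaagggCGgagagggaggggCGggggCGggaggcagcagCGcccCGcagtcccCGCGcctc
Wnt10b, chr15:98778151-98778400, minus strand: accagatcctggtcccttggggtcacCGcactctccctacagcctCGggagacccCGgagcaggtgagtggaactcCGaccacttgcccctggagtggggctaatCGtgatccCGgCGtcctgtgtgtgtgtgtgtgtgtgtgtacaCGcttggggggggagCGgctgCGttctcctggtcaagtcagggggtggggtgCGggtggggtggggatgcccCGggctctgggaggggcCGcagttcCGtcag
Wnt6, chr1:74771642-74771891, plus strand: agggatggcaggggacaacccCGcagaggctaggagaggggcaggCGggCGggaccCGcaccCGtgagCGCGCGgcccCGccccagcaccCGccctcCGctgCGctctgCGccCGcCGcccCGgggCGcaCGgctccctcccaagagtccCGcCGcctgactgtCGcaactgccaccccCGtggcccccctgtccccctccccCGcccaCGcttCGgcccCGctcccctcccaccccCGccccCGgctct

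Dkk2 and Wnt7a were both called lower in STHdhQ111, and their upstream windows held 7 and 34 CpG. Wnt10b and Wnt6 were both called higher, with 14 and 28 CpG. The window of Dkkl1 held 11 CpG. Over the 8 genes called higher that had an entry, the median was 19 CpG, and over the 6 called lower it was 12.5 CpG. The 15 tested and uncalled genes with an entry had a median of 29 CpG, and the 8950 tested genes of the whole table with an entry had 16 CpG. No methylation was measured in the values used here. The word CTTTGAT, which TCF/LEF factors are known to bind, was searched on both strands of the same windows. It was found in the window of Wnt11 and in no other of the 29 tested Wnt pathway genes with an entry, or 3.45%, against 2.16% of the tested genes of the whole table and 3.26% of all 27025 genes with an entry. These are matches of letters in a short window. Among the called genes Apcdd1, Fzd3, Porcn, Rspo2, Rspo3, Sfrp1, Wnt10a and Wnt5a had no entry.

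Most tested Wnt ligands were higher in STHdhQ111, with Wnt10a in the lead, while Wnt7a was lower. The 19 ligand genes of the table summed (without an error) to 43.1 FPKM in STHdhQ7 against 123.5 in STHdhQ111, a ratio of 2.87. Of the 11 tested ligands, 6 were called higher (54.5%, against 6.35% over all tested genes), 1 was called lower and 4 were not called. In STHdhQ7 Wnt6, Wnt10b and Wnt11 were within the range of the untested genes (up to 0.387 FPKM), so a lower call was hardly possible for them. Wnt7a was within that range in STHdhQ111 (up to 0.463 FPKM), so a higher call was hardly possible for it. Wnt10a, a ligand known for roles in skin, tooth and mesenchymal cells, rose from 5.51 FPKM in STHdhQ7 to 54.7 FPKM in STHdhQ111. The authors' deposited table gave a log2 change of 3.31 ± 0.44 (implied SE, q = 3.26e-12). Wnt10a made up 12.8% of the ligand sum in STHdhQ7, where it ranked 3, and 44.3% in STHdhQ111, where it ranked 1.

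Wnt6 lies next to Wnt10a on chromosome 1 and changed with it. Wnt6 spans 74818466 to 74831893 and Wnt10a 74838593 to 74850749 on mm9, with 6.70 kb and no other gene of the table between them. Wnt6 rose from 0.359 to 4.31 FPKM, or 3.59 ± 0.65 on the log2 scale (implied SE) by the authors' deposited table (q = 1.46e-06). Of the 10 tested genes flanking Wnt6, 5 on each side, 1 was called higher, and that is Wnt10a. The related ligand Wnt10b (chromosome 15, 98602183 to 98608581) had 0 FPKM in STHdhQ7 against 3.36 in STHdhQ111 (q = 0.00284 in the authors' deposited table), so no fold is given. Its neighbour Wnt1, 11.7 kb away with no gene of the table between, was listed at 0.0475 and 0.0880 FPKM and had no test. The other adjacent ligand pairs, Wnt3a with Wnt9a and Wnt9b with Wnt3 on chromosome 11, held no called gene.

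The other ligands called higher were Wnt16, Wnt5a and Wnt11. Wnt16 rose from 2.44 to 14.8 FPKM (2.60 ± 0.50, log2 change and implied SE by the authors' deposited table). Wnt5a, the best known ligand of signalling without beta-catenin, rose from 1.08 to 5.24 FPKM, or 2.28 ± 0.57 on the log2 scale (implied SE) by the authors' deposited table. Wnt11, which acts in cell movements of the embryo, rose from 0.283 to 1.73 FPKM, or 2.61 ± 0.67 on the log2 scale (implied SE) by the authors' deposited table. These 3 genes lie on chromosomes 6, 14 and 7, apart from each other and from the Wnt6 and Wnt10a pair. STHdhQ111 thus held 10 ligands at 1 FPKM or more and STHdhQ7 held 8.

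Wnt7a was the ligand that went the other way. This ligand, known for roles in synapse formation and brain blood vessels, fell from 6.09 to 0.236 FPKM. The authors' deposited table gave a log2 change of -4.69 ± 0.81 (implied SE, q = 2.68e-07). In STHdhQ7 it ranked 2 among the ligands with 14.1% of their sum, and in STHdhQ111 it ranked 12 with 0.191%. Its close relative Wnt7b stood at 3.34 and 3.42 FPKM and carried no call. Gpr124, a receptor subunit known to act with Wnt7 ligands, was called lower too, from 18.8 to 2.93 FPKM. Wnt9a, the most abundant ligand of STHdhQ7, was listed at 16.9 FPKM there and 25.96 FPKM in STHdhQ111, and Wnt4 at 4.93 and 6.21 FPKM. Neither was called. Wnt5b was listed at 1.503 and 2.58 FPKM with an implied SE of 1.21 and was not called, and its locus in the table overlaps that of Fbxl14. The untested ligands were Wnt1, Wnt2, Wnt2b, Wnt3, Wnt3a, Wnt8a, Wnt8b and Wnt9b, each under 0.5 FPKM in both lines.

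**Figure D2:**
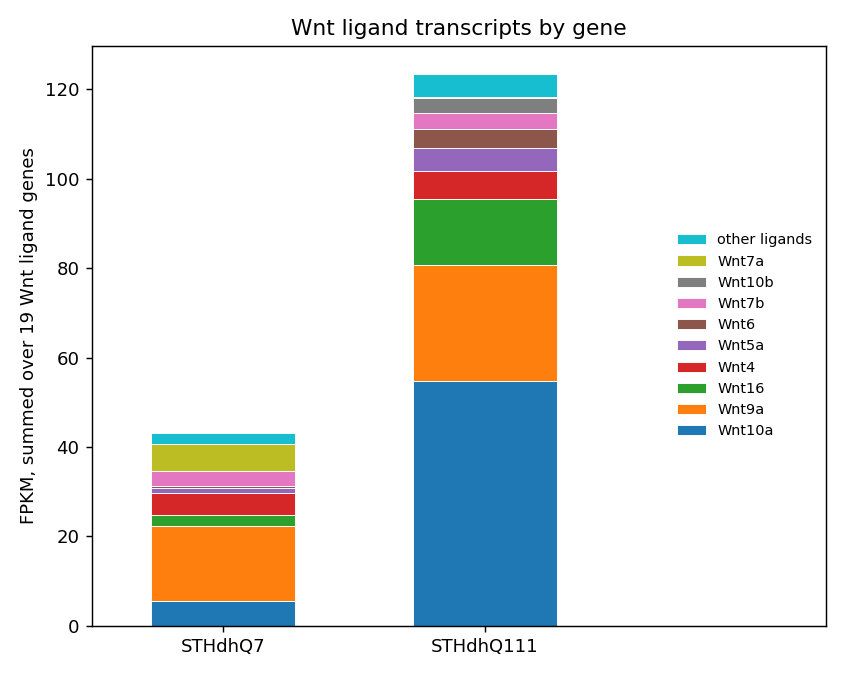
Stacked FPKM of the 19 Wnt ligand genes in each line, 1 bar per line, coloured by gene, from the authors' values combined over replicates and without an error. The bar of STHdhQ7 reaches 43.1 FPKM with Wnt9a as its largest part, and the bar of STHdhQ111 reaches 123.5 FPKM with Wnt10a as its largest part.

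Of the pair of genes that prepare ligands for export, Porcn was called lower and Wls was not called. Porcn, the acyltransferase that attaches the lipid to Wnt proteins, fell from 13.1 to 2.25 FPKM. The authors' deposited table gave a log2 change of -2.55 ± 0.65 (implied SE, q = 0.00129). Wls, the carrier that takes lipid-modified Wnt to the cell surface, stood at 63.2 and 112.8 FPKM and carried no call (q = 0.208 in the authors' deposited table). The line with more ligand transcript thus had less Porcn transcript.

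R-spondin genes rose from near 0. All 3 tested R-spondins were called higher, where 6.35% of all tested genes were. In STHdhQ7 all 3 were at 0.186 FPKM or less, within the range of the untested genes (up to 0.387 FPKM). Their test thus rested on the level in STHdhQ111 and a lower call was hardly possible, so the count is no evidence on direction. The remaining gene, Rspo4, was listed at 0.0143 and 0.0281 FPKM without a test. Rspo2 (chromosome 15, 42852341 to 43002364) rose from 0.186 FPKM in STHdhQ7 to 12.7 FPKM in STHdhQ111. The authors' deposited table gave a log2 change of 6.09 ± 0.61 (implied SE), and its q of 0 is below the printed precision. Rspo3 rose from 0.0121 to 1.86 FPKM and Rspo1 from 0.118 to 1.16 FPKM. The size of the change of Rspo3 rests on a value near 0: the authors' deposited table gave 7.27 ± 2.00 (implied SE) on the log2 scale, whereas adding 0.5 FPKM to both values gave 2.20. Summed over the 4 genes, R-spondin transcripts came to 0.331 FPKM in STHdhQ7 against 15.7 in STHdhQ111. The 3 called R-spondins lie on chromosomes 15, 10 and 4. Among the 5 tested genes on each side of each, none was called higher (6.35% over all tested genes). Called lower were 2 of these neighbours at Rspo2, 1 at Rspo3 and 1 at Rspo1 (7.17% over all tested genes).

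Among the receptors of R-spondins and the ligases they remove, 1 of 3 tested genes was called (33.3%, against 13.5% over all tested genes). Lgr4 was the main Lgr transcript at 5.67 and 4.07 FPKM and was not called. Lgr5 (0.336 and 0.0310 FPKM) and Lgr6 (0.387 and 0.245 FPKM), receptors that mark stem cells in several epithelia, had no test. Rnf43, a ligase that takes Frizzled receptors off the surface and a known target gene of the pathway, rose from 0.646 to 4.84 FPKM (2.90 ± 0.50, log2 change and implied SE, q = 3.48e-07 by the authors' deposited table). Its paralog Znrf3 stood at 2.34 and 1.24 FPKM and carried no call. Whether the changes of the paralogs differ was not tested.

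Some markers of mesenchymal and meningeal cells were higher in STHdhQ111 too, and R-spondins and several of these ligands are known from such cells. Of the 12 tested markers of that list, 5 were called higher (Col1a1, Col1a2, Foxc1, Pdgfra and Zic1) and none lower. That is 41.7% called higher, against 6.35% over all tested genes. The other 7 were not called, among them Prrx1 (93.7 and 101.5 FPKM) and Twist1 (58.5 and 58.8 FPKM). The 13 listed genes summed to 831.0 FPKM in STHdhQ7 against 2545 in STHdhQ111. The largest parts in STHdhQ111 were Col1a1 (451.9 to 1487 FPKM) and Col1a2 (11.5 to 532.6 FPKM). None of the 13 was at 0 in either line, and the lowest was Lum at 0.0773 and 0.501 FPKM. The cortical hem and choroid plexus are forebrain sources of Wnt ligands and R-spondins. Of their 9 listed markers 4 had a test. Only Rspo2, itself 1 of the Wnt pathway genes described here, was called (25%, against 13.5% over all tested genes). The list sum of 5.29 and 14.7 FPKM rested on Rspo2 in STHdhQ111. Ttr and Otx2 were at 0 in both lines, and Lmx1a was at 0.0310 and 0.0926 FPKM. Fewer cells of a type and less RNA per cell cannot be told apart in these bulk values, and the part of such markers in the result was not tested.

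Genes grouped as antagonists at the cell surface were mostly lower in STHdhQ111. Of the 6 tested, 4 were called lower (Dkk2, Sfrp1, Apcdd1 and Dkkl1), or 66.7%, against 7.17% over all tested genes. Of the others 1 was called higher (Sfrp2) and 1 was not called (Dkk3). Dkkl1 and Dkk3 were grouped here by name, and whether they inhibit Wnt signals was not tested. In STHdhQ111 Dkk2 and Dkkl1 were within the range of the untested genes (up to 0.463 FPKM), so a higher call was hardly possible for them. The median log2 ratio of the 6 was -2.53. Summed over the 12 antagonist genes, transcripts came to 78.8 FPKM in STHdhQ7 against 12.4 in STHdhQ111. Dkk2, which binds Lrp5 and Lrp6, went from 19.4 to 0.0333 FPKM, the largest fold decrease among the tested Wnt pathway genes. The authors' deposited table gave a log2 change of -9.18 ± 1.21 (implied SE), and adding 0.5 FPKM to both values gave -5.22. Dkk2 was thus a well expressed gene in STHdhQ7 and close to the lowest listed values in STHdhQ111.

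Sfrp1, a secreted decoy with a Frizzled-like domain, fell from 16.5 to 1.61 FPKM, or -3.36 ± 0.50 on the log2 scale (implied SE) by the authors' deposited table. Sfrp2, of the same family, rose from 1.21 to 3.90 FPKM and is the call nearest to the threshold. Apcdd1, a membrane inhibitor that binds Wnt and Lrp5, fell from 37.5 to 6.38 FPKM (-2.56 ± 0.42, log2 change and implied SE by the authors' deposited table). It was the most abundant antagonist transcript in both lines. Dkkl1, a Dkk-related secreted protein best known from the testis, went from 2.78 to 0.0423 FPKM, or -6.04 ± 1.87 on the log2 scale (implied SE) by the authors' deposited table. Dkk3, a divergent member of the family, stood at 0.923 and 0.203 FPKM and carried no call. Dkk1, Dkk4, Frzb, Sfrp4, Sfrp5 and Wif1 had no test, and each was under 0.4 FPKM in both lines.

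**Figure D3:**
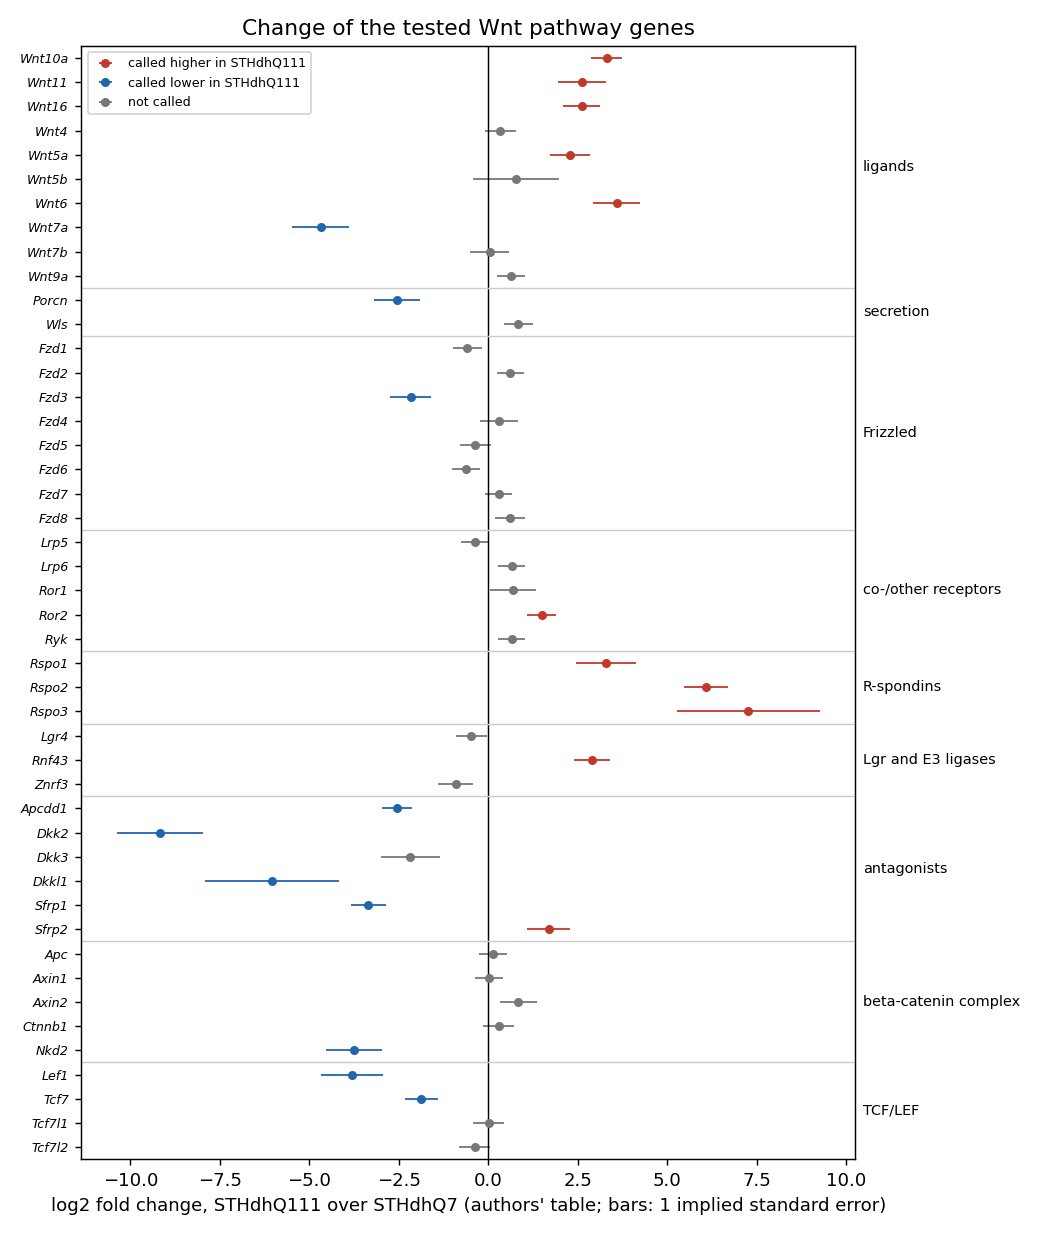
Log2 fold change of the 46 tested Wnt pathway genes with a finite value in the authors' table, STHdhQ111 over STHdhQ7, in order of role; bars are 1 implied standard error, red marks genes called higher, blue genes called lower and grey the others. Wnt10b, listed at 0 in STHdhQ7, has no finite value and is not drawn; all 3 R-spondins sit right of 0, and of the 6 antagonists only Sfrp2 does.

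Among the Frizzled receptors, which bind the ligands, Fzd1 was the most abundant transcript in both lines. Of the 8 tested, Fzd3 was called lower and 7 were not called, and 12.5% called is close to the 13.5% over all tested genes. Fzd3, a receptor needed for axon tracts of the forebrain, fell from 1.46 to 0.323 FPKM (-2.17 ± 0.57, log2 change and implied SE by the authors' deposited table). Fzd1 was listed at 92.3 and 61.4 FPKM, 53.0% and 40.2% of the Frizzled sum. Fzd6 followed at 23.1 and 14.9 FPKM, Fzd7 at 21.9 and 26.7 FPKM and Fzd2 at 21.9 and 33.3 FPKM, so these 3 are too close in STHdhQ7 to be ordered. Fzd8 was listed at 6.60 and 9.98 FPKM, Fzd5 at 5.26 and 4.09 FPKM and Fzd4 at 1.399 and 1.72 FPKM. The Frizzled sum was 174.1 FPKM in STHdhQ7 against 152.9 in STHdhQ111, a ratio of 0.878. Fzd9 and Fzd10 had no test and were at most 0.245 FPKM.

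Among the 5 co-receptors and alternative receptors, all tested, only Ror2 was called (20%, against 13.5% over all tested genes). Ror2, a receptor tyrosine kinase that binds Wnt5a, rose from 5.17 to 14.6 FPKM. The authors' deposited table gave a log2 change of 1.49 ± 0.40 (implied SE, q = 0.00266), the smallest called change among the Wnt pathway genes at 2.82-fold. Wnt5a and Ror2, a ligand and its receptor, were thus both called higher. The related Ror1 was listed at 0.503 and 0.814 FPKM, and Ryk, a receptor without an active kinase, at 40.9 and 64.1 FPKM. The co-receptor Lrp5 was listed at 36.3 and 27.9 FPKM and Lrp6 at 13.9 and 21.9 FPKM. With implied standard errors near 0.38, these differences of Lrp5 and Lrp6 were not resolved by the authors' test.

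Of 5 tested genes grouped around beta-catenin and its destruction complex, 1 was called lower (20% called, against 13.5% over all tested genes). That was Nkd2, a Dishevelled-binding inhibitor grouped with them, while the other 4 (Ctnnb1, Axin1, Axin2 and Apc) were not called. Ctnnb1, which encodes beta-catenin, was listed at 192.8 and 235.7 FPKM, the highest level of the 67 genes in each line. The scaffold Axin1 was listed at 17.8 and 18.03 FPKM and Apc, its partner in the destruction complex, at 6.02 and 6.63 FPKM. Axin2, a feedback inhibitor whose transcript is widely read as a response to beta-catenin, stood at 1.54 and 2.75 FPKM and carried no call (0.84 ± 0.51, log2 change and implied SE, q = 0.385 by the authors' deposited table). Nkd2, a feedback inhibitor that binds Dishevelled, fell from 3.15 to 0.234 FPKM, or -3.75 ± 0.78 on the log2 scale (implied SE) by the authors' deposited table. Nkd1, its paralog, was listed at 0.127 and 0.349 FPKM and had no test.

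The TCF/LEF factors, which bring beta-catenin to DNA, split into a called pair and an uncalled pair (50% called, against 13.5% over all tested genes). Lef1 fell from 2.73 to 0.196 FPKM (-3.80 ± 0.86, log2 change and implied SE, q = 0.000214 by the authors' deposited table). Tcf7 fell from 15.2 to 4.16 FPKM (-1.87 ± 0.47, log2 change and implied SE, q = 0.00109 by the authors' deposited table). Tcf7l1, mostly known as a repressor, was listed at 14.8 and 14.9 FPKM, and Tcf7l2 at 16.4 and 12.6 FPKM. In STHdhQ7 Tcf7, Tcf7l1 and Tcf7l2 were at like levels, and in STHdhQ111 Tcf7l1 and Tcf7l2 stood above Tcf7. Lef1 and Dkk2 are the nearest pair of called Wnt pathway genes after Wnt6 and Wnt10a. They lie 822 kb apart on chromosome 3 (Lef1 at 130813389 to 130926249, Dkk2 at 131748256 to 131843268), and both were called lower. Of the 4 tested genes between them Papss1 and Sgms2 were called lower and none higher (7.17% called lower over all tested genes). These genes were chosen after their values were seen, and a change of the whole stretch was not tested.

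At 10 FPKM or more in both lines there were 13 Wnt pathway genes, namely Ctnnb1, Wls, Fzd1, Fzd2, Fzd6, Fzd7, Lrp5, Lrp6, Ryk, Axin1, Tcf7l1, Tcf7l2 and Wnt9a. By the authors' Cuffdiff q-values 0 of them were called, and 1 of them (Wls) had an unadjusted p under 0.05. Over all genes at that level in both lines 5.27% were called, so a count of 0 among 13 is near the background. A minimum in both lines also leaves out genes that fell or rose far, and of the 22 members at that level in at least 1 line 9 were called. Of the 22 called members, 9 changed by 10-fold or more in the authors' deposited table, Wnt10b with its 0 not counted. The same share over all called genes was not computed, so this count has no background beside it. Some of these folds rest on a value near 0, such as Rspo3 (0.0121 FPKM in STHdhQ7) and Dkk2 (0.0333 FPKM in STHdhQ111).

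Further genes of the pathway were taken from 4 lists of textbook members, also chosen with earlier results of these data known. Of 38 tested genes of cytoplasmic transduction and nuclear cofactors, 1 was called higher (the corepressor Tle1, 8.40 to 17.6 FPKM) and 2 lower (the Dishevelled-binding Ccdc88c, 2.97 to 0.333 FPKM, and Dact2, 5.32 to 1.56 FPKM), or 7.89% called. Their median ratio was 0.0027 on the log2 scale. The corepressor Aes, the most abundant of them, stood at 384.0 and 214.6 FPKM and carried no call. Dishevelled, Gsk3 and casein kinase genes were all among the 35 that were not called.

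Of 19 tested extracellular and membrane modulators outside the choice by symbol, 2 were called higher and 7 lower, with a median log2 ratio of -0.48. That is 47.4% called, against 13.5% over all tested genes. The glypican Gpc4 rose from 36.3 to 123.5 FPKM, and the heparan sulfatase Sulf1 rose from 0.0836 to 0.948 FPKM. Serpinf1, a secreted serpin, fell from 68.5 to 14.1 FPKM. Tspan12, a tetraspanin that acts with Fzd4, fell from 4.75 to 0.725 FPKM. Lypd6, a membrane-anchored enhancer of Lrp6 signalling, fell from 3.97 to 0.386 FPKM, and Gpc2 fell from 3.12 to 0.381 FPKM. The glypican Gpc6 fell from 7.85 to 3.43 FPKM and the decoy receptor Bambi from 0.793 to 0.139 FPKM, and Gpr124 is given above. Sulf2 (208.2 and 286.4 FPKM) and Sdc1 (97.4 and 99.9 FPKM) were abundant and not called. Notum, the enzyme that removes the lipid from Wnt proteins, stood at 44.2 and 22.3 FPKM and carried no call (q = 0.0930 in the authors' deposited table).

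Of 28 tested genes of planar cell polarity and signalling without beta-catenin, 2 were called higher and 2 lower (14.3% called, near the 13.5% over all genes), with a median of -0.16. Prickle1, a cytoplasmic polarity protein, rose from 0.641 to 3.00 FPKM and Nfatc4, a calcium-regulated factor, from 4.41 to 11.7 FPKM. Celsr2, an atypical cadherin of the polarity complex, fell from 3.47 to 0.375 FPKM, and Ankrd6 fell from 3.73 to 0.410 FPKM. Ptk7, a Wnt receptor-like protein, stood at 69.0 and 130.7 FPKM and carried no call.

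Textbook target genes of beta-catenin and TCF did not share a direction. Of 26 tested, 5 were called higher, 8 lower and 13 were not called, with a median of -0.36. That is 50% called, against 13.5% over all tested genes. Those called higher were the matricellular gene Wisp2 (4.82 to 41.5 FPKM), the receptor gene Tnfrsf19 (1.39 to 12.2 FPKM), the growth factor Fgf18 (4.001 to 18.4 FPKM), the ephrin receptor Ephb2 (0.568 to 4.19 FPKM) and the stem cell factor Ascl2 (0.368 to 3.91 FPKM). Those called lower included the transcription factors Sp8 (3.60 to 0.0347 FPKM) and Cdx2 (2.70 to 0.0575 FPKM), the adhesion receptor Cd44 (94.5 to 34.6 FPKM) and the cell cycle genes Ccnd1 (272.4 to 28.4 FPKM), Ccnd2 (56.2 to 23.6 FPKM) and Birc5 (32.3 to 9.71 FPKM). The activin inhibitor Fst (60.8 to 28.5 FPKM) and the Notch ligand Jag1 (5.97 to 2.57 FPKM) were the other 2. Myc was listed at 13.3 and 10.7 FPKM and Wisp1 at 18.6 and 17.8 FPKM, and neither was called. Among the members that are themselves known targets, Rnf43 was called higher, Lef1, Tcf7 and Apcdd1 were called lower, Axin2 and Znrf3 were not called, and Lgr5, Nkd1 and Dkk1 had no test.

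**Figure D4:**
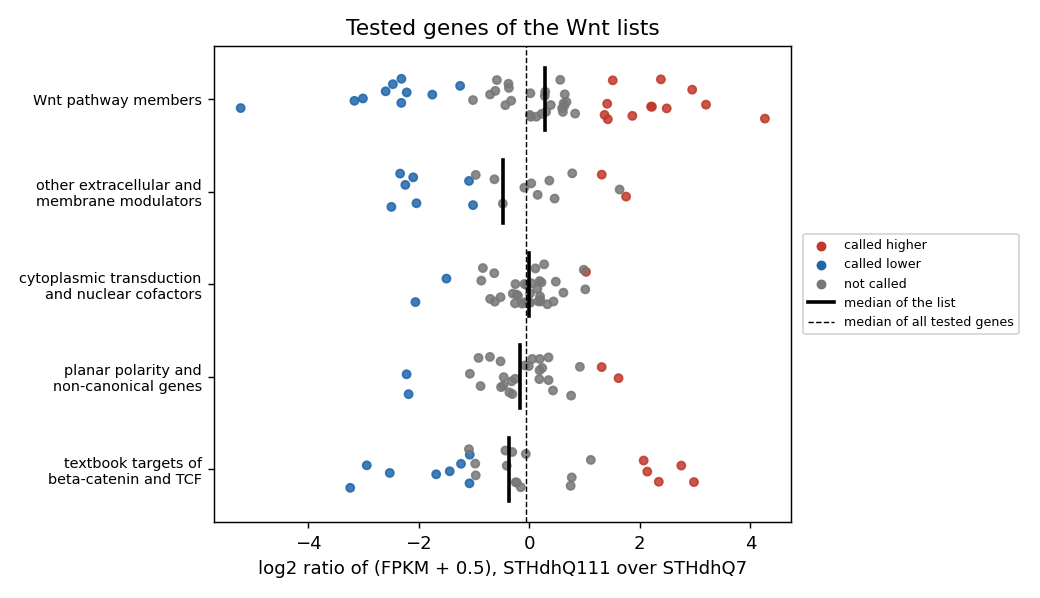
Log2 ratio of (FPKM + 0.5), STHdhQ111 over STHdhQ7, for each tested gene of 5 lists, 1 point per gene with a small vertical scatter for legibility; red and blue points were called higher and lower, the solid bar is the list's median and the dashed line the median of all tested genes at -0.05. The Wnt pathway members and the target genes have called points on both sides. In the cytoplasmic list 35 of 38 points were not called (7.89% called, against 13.5% over all tested genes).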

How the data were processed

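Per the labels' protocols, mRNA of both lines was pulled down by its poly(A) tail and copied with random primers, and no step that marks strand is described. The submitters' processing notes name Cufflinks 2.0.2 with Cuffdiff, TopHat 1.4.0, Bowtie 0.12.7 and the mm9 build. The gene annotation and the options were not stated.

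The deposited FPKM are the authors' values, 1 per line, combined over replicates, per the file headers. The authors' deposited log2 fold change equalled the ratio of these FPKM to within 4.5e-05. A recomputation of the authors' deposited p-value from the test statistic (a score, deposited by the authors) as a normal deviate differed by at most 2.7e-06, and one of the q-value by Benjamini-Hochberg over the 12740 tested genes by at most 2.2e-06. The implied standard error is the fold change divided by that statistic. It rests on the authors' model, and no test of the present work was possible. Nothing in the labels says that replicates were separate cultures.

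Computed here were log2 ratios of (FPKM + 0.5), which understate changes of low genes, sums, counts and promoter features (Python 3.11.15, pandas 2.3.3). Locus starts were read as 0-based and raised by 1, since end minus start equalled the RefSeq length for 7132 symbols, against 453 with 1 added. Named are all called members and all members at 1 FPKM or more in a line, and from each other list up to 6 called genes per direction and 3 uncalled ones, shortened in the text. Bambi, Fst, Jag1, Myc, Wisp1, Notum as a modulator, the untested markers, and the genes between Lef1 and Dkk2 were chosen after their values were seen. The members and lists were chosen with earlier results of these data known. A marker used in the check of the labelled origin is not reported here. The q-value adjustment and the calling were tested on simulated normal values, while the ratios, sums, neighbours and promoter features were not.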

Additional observations from a re-analysis of the deposited data

How the results depend on the processing

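Counts of called Wnt pathway genes stayed within 1.5 times of 12 higher and 10 lower at a q of 0.01 or 0.1, with a minimum of 4-fold and over genes at 1 FPKM or more. With a Bonferroni adjustment, which is stricter by construction, 5 were higher and 5 lower. No called Wnt pathway gene changed sign under the other pseudocounts (0.1 and 1 FPKM), recentring or scaling each line to its FPKM sum. A pseudocount cannot change a sign by construction. Under these settings and over genes at 1 FPKM or more, the median log2 ratio ran from 0.27 to 0.33 and the share above 0 from 61.7% to 62.2%. In the cytoplasmic list the 1 higher call fell to 0 and the 2 lower calls to 1 at a q of 0.01, at 4-fold and with Bonferroni. Among the other modulators the 2 higher calls became 1 at 4-fold, over genes at 1 FPKM or more and with Bonferroni, and the 7 lower calls became 3 with Bonferroni. In the planar polarity list the 2 higher calls became 1 at a q of 0.01 and at 4-fold and 0 with Bonferroni, and the 2 lower calls became 1 with Bonferroni. Of the 8 target genes called lower, 5 were left at a q of 0.01 and 3 at 4-fold and with Bonferroni. No paired analysis was possible because each line has 1 combined value, and for the same reason no replicate could be left out. Depth is unknown, so how far it limits the 20 untested genes cannot be stated.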

Other observations

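Microglial markers and most endothelial markers were near 0 in both lines. The 5 microglial markers summed to 0.129 FPKM in STHdhQ7 and 0.394 FPKM in STHdhQ111, and none had a test. Of the 5 endothelial markers only Tek had a test. It was called higher, from 0.386 to 1.46 FPKM (6.35% called higher over all tested genes), while Cldn5 was listed at 0 in both lines. Among 15 markers of striatal and ventral forebrain progenitors 9 had a test. Dlx2 was called higher (1.94 to 5.73 FPKM), and 4 were not called. That is 11.1% called higher and 44.4% called lower, against 6.35% and 7.17% over all tested genes. Those called lower were Sox2 (72.0 to 0.561 FPKM), Nes (36.0 to 0.999 FPKM), Meis2 (17.9 to 6.16 FPKM) and Pax6 (14.9 to 0.0213 FPKM).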
